A study of Homo sapiens with 8 samples.

Results

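Human long noncoding RNA (lncRNA) genes whose symbol ends in -DT are divergent transcripts. They start beside a neighbouring gene, the partner whose name they carry, and are transcribed away from it on the opposite strand. The -DT genes measured here were the lncRNA genes of GENCODE release 44 (hg38) with such a symbol that were matched to a gene of the short-read table and reached 10 normalized counts in 3 or more of its 6 libraries. GENCODE held 589 such genes, and 564 were matched to a gene of the table. Of these, 354 passed the count minimum, among the 62727 genes of the table. The stable ENSG identifier matched 66 of them. The other 288 were matched to an assembled gene (MSTRG) overlapping them on the same strand, at a Jaccard index of at least 0.5 (shared bases over joined bases). A table span over 200 bases was needed for testing, which DHX35-DT missed with a span of 187 bases, so 353 were tested. The partner could be matched for 314 and tested for 313. All 313 tested partners were protein-coding genes on the opposite strand.

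The RNA came from HAP1 cells, a near-haploid human leukemia cell line grown without any treatment or genetic change given in the labels. Nuclei were extracted with urea and detergent and spun into a pellet, the chromatin fraction, and a supernatant, the nucleoplasm fraction. Each fraction was sequenced as directional short reads from 3 independent cultures. Chromatin RNA depleted of ribosomal RNA was also given poly(A) tails by an enzyme in vitro and sequenced as Nanopore cDNA long reads in 2 libraries. ERCC standards, synthetic RNAs of known amount, were added to every fraction.

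Promoters of mammalian genes commonly start transcription in both directions. On the side of the coding gene, RNA polymerase II makes a long precursor that is spliced and exported. On the other side, many transcripts are terminated early by the Integrator or cleavage and polyadenylation complexes and are degraded by the nuclear exosome with its adaptors, and early poly(A) signals and scarce splice sites that bind U1 snRNP are known marks of such transcripts. Those that escape can be spliced, long and annotated as lncRNAs. Nascent and retained RNA stays with the chromatin pellet, while released and processed RNA is found in the nucleoplasm. The question here is how each divergent transcript was distributed between chromatin and nucleoplasm, set against the coding gene that shares its promoter.

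To show what such a shared promoter looks like, the stretch between the annotated starts of a pair is printed for 7 pairs on the strand of the -DT gene, from the first base beside the partner's start to base 50 of the -DT gene. The first 4 are among the -DT genes with high chromatin preference described further on and the last 3 among those higher in nucleoplasm. Capitals mark matches on either strand to the TATA box with the letters TATAAA, the box named after its letters CCAAT, the GC box with GGGCGG, the ETS factor motif with CCGGAAG and a part of the NRF1 motif with GCATGCGC, and a run of capitals can hold overlapping matches. The bases were read from the hg38 genome, and no exon of a protein-coding gene in GENCODE lies in any of these stretches.
MANEA-DT, chr6:95577401-95577484, minus strand: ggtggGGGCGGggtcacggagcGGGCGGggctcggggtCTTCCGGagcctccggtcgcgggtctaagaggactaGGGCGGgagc
OSMR-DT, chr5:38845780-38845857, minus strand: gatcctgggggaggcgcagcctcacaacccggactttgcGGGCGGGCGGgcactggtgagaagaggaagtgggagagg
SMC5-DT, chr9:70258817-70258977, minus strand: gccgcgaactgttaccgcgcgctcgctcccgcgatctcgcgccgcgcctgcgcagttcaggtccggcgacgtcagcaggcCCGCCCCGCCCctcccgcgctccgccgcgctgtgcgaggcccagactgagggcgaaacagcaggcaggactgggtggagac
HCCS-DT, chrX:11111171-11111300, minus strand: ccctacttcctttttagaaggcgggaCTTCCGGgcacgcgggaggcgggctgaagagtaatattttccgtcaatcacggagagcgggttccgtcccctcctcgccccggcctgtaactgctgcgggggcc
EMSY-DT, chr11:76444641-76444922, minus strand: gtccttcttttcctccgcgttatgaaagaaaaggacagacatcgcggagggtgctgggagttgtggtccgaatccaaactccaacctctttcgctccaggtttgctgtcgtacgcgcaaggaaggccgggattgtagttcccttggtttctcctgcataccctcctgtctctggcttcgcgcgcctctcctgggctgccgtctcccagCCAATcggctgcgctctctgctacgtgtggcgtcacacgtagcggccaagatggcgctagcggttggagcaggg
ATP6AP1-DT, chrX:154428477-154428632, minus strand: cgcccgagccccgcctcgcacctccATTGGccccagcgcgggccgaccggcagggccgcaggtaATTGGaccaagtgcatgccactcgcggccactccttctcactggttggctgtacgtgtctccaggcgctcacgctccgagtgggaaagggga
BAIAP2-DT, chr17:81034832-81035121, minus strand: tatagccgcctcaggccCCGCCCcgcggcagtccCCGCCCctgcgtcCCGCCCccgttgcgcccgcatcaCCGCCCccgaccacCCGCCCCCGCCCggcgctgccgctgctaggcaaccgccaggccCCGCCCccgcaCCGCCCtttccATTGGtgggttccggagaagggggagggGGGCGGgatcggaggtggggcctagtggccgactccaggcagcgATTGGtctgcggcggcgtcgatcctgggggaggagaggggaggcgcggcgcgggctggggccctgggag
These stretches ran from 78 bases in OSMR-DT to 290 bases in BAIAP2-DT, and their GC content ran from 59.2% in EMSY-DT to 77.6% in BAIAP2-DT. GC boxes were present in MANEA-DT, OSMR-DT, SMC5-DT and BAIAP2-DT, CCAAT boxes in EMSY-DT, ATP6AP1-DT and BAIAP2-DT, and the ETS motif in MANEA-DT and HCCS-DT. A match describes the letters and does not show that a factor binds there. The pairs shown are picked examples, so no motif is read as going with a fraction.

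The same features were counted in the RefSeq promoter windows (GRCh38.p14), which run from 250 bases before to 50 bases after a start and were present for 270 of the 354 -DT genes. For 192 of these the RefSeq start lay within 100 bases of the GENCODE start. Median GC content was 69.3% in the -DT windows, 68.0% in the windows of 258 partners and 58.3% in all 27305 windows. The GC box was found in 73.0% of the -DT windows and in 44.6% of all windows, and the ETS motif in 24.1% and 10.7%. The NRF1 motif part was in 8.15% of the -DT windows and in 3.27% of all windows. The TATA box was the scarcer one, at 4.81% against 12% of all windows, and the CCAAT box was at 31.1% against 35.7%. Of the -DT genes called in chromatin by the rule given further on, 52 had a window, and of those called in neither fraction 217. The CCAAT box was in 30.8% and 30.9% of these windows, and the GC box in 61.5% and 75.6%. No difference between them was tested. A -DT window and its partner's window overlap in most pairs, so their values are not separate observations.

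The starts lay close together in most pairs. The gap between the annotated starts had a median of 84 bases (quartiles -40 and 194). A negative gap means that the starts cross, so that the annotated spans overlap. That overlap need not be at the 5′ ends, since the lowest gap was -173373 bases. The gap was at most 1000 bases in either direction in 281 of the 313 pairs, and the annotated spans overlapped in 88 pairs. In the spans of the table, 83 pairs overlapped. Since the short-read libraries keep strand, reads of the overlapping parts are assigned to one gene or the other. Of the 288 MSTRG matches, 56 also covered another annotated gene of the same strand, whose reads cannot be separated from theirs. Among the genes named further on these were TMEM161B-DT, GARS1-DT, EOLA2-DT, COX10-DT, NIPBL-DT, UBL7-DT, OSMR-DT and VPS13B-DT.

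The fractions were checked with transcripts of known place. MALAT1, an lncRNA of nuclear speckles, had 950756, 1039379.7 and 906999 normalized counts in chromatin and 116415, 111672 and 111719 in nucleoplasm, and GAPDH, a glycolytic enzyme, went the other way with a log2 fold change of -2.35 ± 0.08. These directions go with the library titles. Groups follow the titles because a further label on RNA fraction names chromatin for every sample. BCR and ABL1, the genes joined in the leukemia from which the line derives, lay between 697 and 1470.0 normalized counts in the 6 libraries.

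Most -DT genes were higher in chromatin under the deposited scaling, and most of those by less than 4-fold. Values are normalized counts, which are reads divided by a size factor per library, and a log2 fold change is chromatin over nucleoplasm on log2(normalized count + 1), with its standard error from limma (n = 3 per fraction). Of the 353 tested -DT genes, 251 were higher in chromatin at an adjusted p under 0.05 (71.1%; 44.2% of all 26066 tested genes), 39 were higher in nucleoplasm (11%; 45.2% of all) and 63 passed in neither direction (limma, Benjamini-Hochberg over all tested genes). A gene was called when it also differed by over 4-fold. By that rule 72 -DT genes were called in chromatin (20.4%; 21.2% of all genes) and 1 in nucleoplasm (0.283%; 8.47% of all). The share called in chromatin was thus near that of all genes, while few -DT genes lay on the nucleoplasm side. That scarcity was not particular to them. Of 619 other lncRNAs that start head to head with a coding gene 0.646% were called in nucleoplasm, and of 3079 tested lncRNAs without -DT 0.715%. The shares of these 2 classes higher in chromatin at an adjusted p under 0.05 were 70.3% and 76.8% (limma).

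The median log2 fold change was 1.15 (quartiles 0.34 and 1.81, range -2.07 to 4.33) beside -0.02 for all tested genes. With the libraries set to the same ERCC total, which compares amounts per fraction and not shares of each library, the -DT median turned to -0.13 with all genes at -1.33, and the calls became 11 in chromatin and 29 in nucleoplasm. With the same total per library the median was 1.59 with all genes at 0.44, and the calls were 124 and 0. Calls over all genes were not counted under these scalings, so the -DT calls have no share beside them. Relative to all genes, the -DT median was 1.17 as deposited, 1.15 with the same total and 1.20 with the same ERCC total. Directions of single genes are therefore directions relative to the deposited scaling. In this bulk measurement fewer nuclei holding a transcript and less of it per nucleus cannot be told apart.

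The libraries of the fractions did not overlap for 287 of the 353 -DT genes (81.3%; 90.6% of all genes). Because the count minimum asks for only 3 libraries, a gene can enter through chromatin alone. For 49 -DT genes at least 10 normalized counts were present in the 3 chromatin libraries and in no nucleoplasm library, and 24 of these were among the 72 calls. Over the 241 -DT genes with at least 10 in all 6 libraries, 38 were called in chromatin (15.8%) and the median log2 fold change was 0.88. The share of all genes under that condition was not taken, so this count is a description. The median of all 353 was the same 1.15 with 4 genes set to a bound, those in which all libraries of a fraction held at most 3 reads. RRS1-DT was at least 6.72-fold higher in chromatin, ACTN1-DT at least 6.55-fold and PARD3-DT at least 5.79-fold, each against a floor of 3 reads per library.

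**Figure D1:**
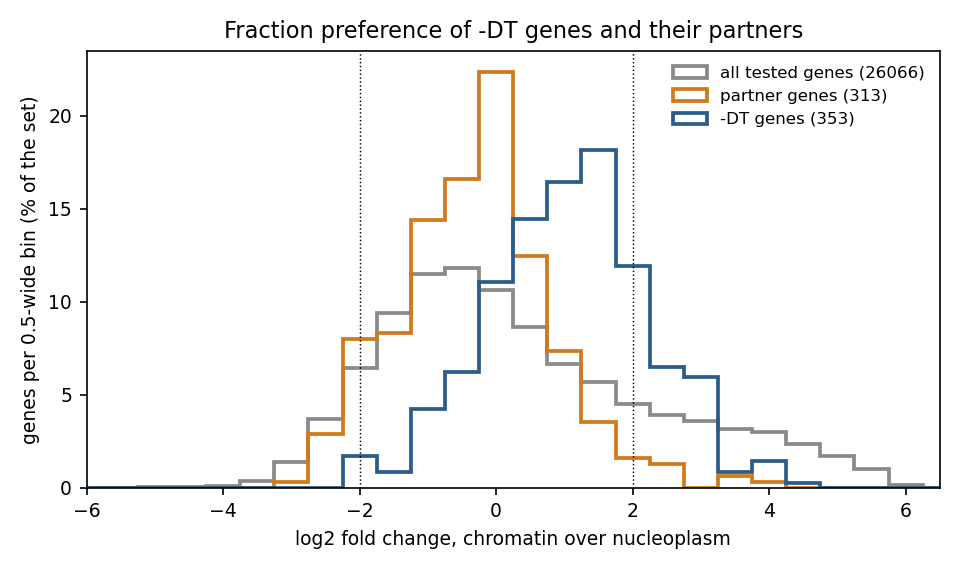
Log2 fold change of chromatin over nucleoplasm (x axis, 0.5-wide bins) against the share of each gene set in percent (y axis) for 353 tested -DT genes (blue), their 313 partners (orange) and all 26066 tested genes (grey); dotted lines mark -2 and 2. The -DT genes centre at 1.15 and their partners at -0.26 under the deposited scaling, and with the same ERCC total these medians are -0.13 and -1.58, with the same total 1.59 and 0.21.

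The most abundant -DT genes with a tested partner are given first. TMEM161B-DT (MSTRG.26397, chr5:88268891-88439337, plus strand), beside a gene for a membrane protein, had 16327, 20562 and 16559.7 normalized counts in the chromatin libraries and 2221, 2233 and 2191 in the nucleoplasm libraries. All 3 chromatin values lay far above the nucleoplasm values, with a log2 fold change of 2.999 ± 0.09 (adjusted p = 1.29e-08). TMEM161B itself also leaned to chromatin, with 6844, 7036 and 7311 and 2271, 2273 and 2122 normalized counts, at 1.67 ± 0.05. The spans of this pair overlap by 586 bases in the table.

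GARS1-DT (MSTRG.30393, chr7:30496621-30595286, minus strand), beside the gene for glycyl-tRNA synthetase, had 11369, 12747 and 10356 normalized counts in chromatin and 4894, 5112 and 5029 in nucleoplasm. The chromatin values were higher without reaching the 4-fold rule, at 1.19 ± 0.07 (adjusted p = 5.84e-07), and with the same ERCC total the value was -0.13. Its span overlaps that of GARS1 by 63066 bases in the table, and GARS1 was matched at a Jaccard index of only 0.51.

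EOLA2-DT (MSTRG.35774, chrX:149938613-150224580, plus strand) was among the -DT genes with the largest fold changes. Its normalized counts were 5445, 6116 and 5007 in chromatin and 341, 282 and 344 in nucleoplasm, which is 4.10 ± 0.10 as log2 fold change (adjusted p = 1.02e-08). EOLA2 had 2087, 2049 and 2034 and 2616, 2664 and 2673 normalized counts, which is a small difference in the other direction (-0.37 ± 0.04) that turned to 0.10 with the same total. EOLA2 was matched at a Jaccard index of 0.54.

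SMC5-DT (chr9:70193997-70258866, minus strand) lies beside the gene for a subunit of the SMC5/6 complex, which keeps chromosomes intact. It had 1992, 2332 and 1920.0 normalized counts in chromatin and 227, 231 and 210.4 in nucleoplasm (3.21 ± 0.08, adjusted p = 1.07e-08). SMC5 was higher in chromatin too, at 13179, 15549.7 and 14459 against 7336, 6952 and 6989 (1.02 ± 0.06), although with the same ERCC total it was at -0.31. Under the deposited scaling the -DT gene thus moved in the direction of its partner, and further. The pair difference, taken within libraries, was 2.20 ± 0.08.

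HCCS-DT (chrX:10847578-11111220, minus strand), beside the gene for holocytochrome c synthase, had 1456, 1604 and 1383 normalized counts in chromatin and 197, 183 and 187 in nucleoplasm, at 2.96 ± 0.07 (adjusted p = 1.02e-08). HCCS had 1515, 1504 and 1649.9 and 2455, 2474 and 2502. The -DT gene and the coding gene thus lay on opposite sides, with no overlap between fractions in either.

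GOT1-DT (chr10:99430919-99463259, plus strand), beside the gene for cytosolic aspartate aminotransferase, had 1552, 1536 and 1298 normalized counts in chromatin and 311, 277 and 249 in nucleoplasm, at 2.39 ± 0.10 (adjusted p = 6.03e-08). GOT1 ran the other way, from 2629, 2253 and 2394 to 7895, 7892 and 7872 (-1.70 ± 0.06). RIPK2-DT, beside the gene for a kinase of the NOD receptor pathway, was called in chromatin as well, with 1455, 1815 and 1406 against 278, 262 and 275 normalized counts (2.51 ± 0.10).

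The other 3 abundant -DT genes were higher in chromatin but below the 4-fold rule. COX10-DT, beside the gene for a heme A synthesis enzyme of mitochondria, had 2096, 2266 and 2077 normalized counts in chromatin and 728, 782 and 693 in nucleoplasm (1.55 ± 0.06). NIPBL-DT, beside the gene for the loader of cohesin, had 2135, 1931 and 1896 and 562, 600.0 and 592 (1.76 ± 0.06). UBL7-DT, beside the gene for a ubiquitin-like protein, had 1246, 1370.3 and 1143 and 634, 638 and 654 (0.96 ± 0.07), which became -0.36 with the same ERCC total. No library of one fraction reached the range of the other for these 3 genes.

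Among -DT genes with a tested partner, the largest fold changes towards chromatin included genes of low count. RRS1-DT, at the bound given above, and ACAD9-DT, at 3.90 ± 0.35, had no tested partner. OSMR-DT (chr5:38682581-38845829, minus strand), whose partner encodes the oncostatin M receptor, had 62.9, 81.7 and 52.7 normalized counts in chromatin and 0, 6.89 and 3.38 in nucleoplasm. Its log2 fold change of 4.33 ± 0.66 came with a wide error. LGALSL-DT, beside a galectin-like gene, had 80.4, 82.9 and 61.5 against 5.27, 5.17 and 5.91 (3.55 ± 0.19). MANEA-DT (MSTRG.28534, chr6:95575183-95577450, minus strand), a gene with 1 exon beside the gene for a Golgi mannosidase, had 438, 390.3 and 384 normalized counts in chromatin and 35.98, 24.97 and 23.7 in nucleoplasm (3.82 ± 0.16, adjusted p = 6.30e-08). PARD3-DT, beside a cell polarity gene, had 16.3, 13.2 and 15.4 against 0 in every nucleoplasm library, and its bound is given above. OSMR-DT, LGALSL-DT and PARD3-DT are among the 49 that reached the count minimum in chromatin alone, so their direction was fixed by that minimum and their values are a description.

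Only ZDHHC12-DT was called in nucleoplasm. This gene (chr9:128724445-128733194, plus strand), beside the gene for a palmitoyltransferase, had 31.4, 20.4 and 41.7 normalized counts in chromatin and 133, 124 and 131 in nucleoplasm, at -2.07 ± 0.23 (adjusted p = 3.19e-05). The value sits at the edge of the 4-fold rule, and the number called in nucleoplasm was 0 with a pseudocount of 5, with the same total or by DESeq2. ZDHHC12 had 167, 148 and 171 and 639, 624 and 578 (-1.92 ± 0.08), so gene and partner were in the nucleoplasm to a like degree.

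The next genes on that side with a tested partner and past the adjusted p were below the 4-fold rule. ZNF426-DT (-1.77 ± 0.25) and DCTN6-DT (-1.76 ± 0.20), whose partners were not tested, lay in the same range. ATP6AP1-DT (chrX:154424380-154428479, minus strand), beside the gene for a subunit of the vacuolar proton pump, had 31.4, 36.03 and 32.9 normalized counts in chromatin and 125, 143 and 140.2 in nucleoplasm (-1.99 ± 0.12, adjusted p = 5.13e-07). EMSY-DT (MSTRG.5697, chr11:76435559-76444687, minus strand) had 148, 144 and 138 against 486, 513 and 541 (-1.83 ± 0.07, adjusted p = 4.70e-08). CABP1-DT, beside the gene for a neuronal calcium-binding protein, had 104, 66.1 and 69.2 against 254, 278 and 266 (-1.76 ± 0.17). BAIAP2-DT, beside the gene for an adaptor that bends membranes at actin-rich protrusions, had 175, 150.1 and 168 against 454, 454 and 464 (-1.47 ± 0.08). In ATP6AP1-DT, EMSY-DT, CABP1-DT and BAIAP2-DT every nucleoplasm library was above every chromatin library.

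The partners lay near the shares of all tested protein-coding genes. Of 313, 173 were higher in nucleoplasm (55.3%; 57.6% of coding genes) and 104 in chromatin (33.2%; 30.1% of coding genes) at an adjusted p under 0.05, and 36 passed in neither direction (limma, deposited scaling). By the 4-fold rule 9 were called in chromatin (2.88%; 3.74% of coding genes) and 18 in nucleoplasm (5.75%; 5.73% of coding genes). These calls became 18 and 1 with the same total per library and 2 and 109 with the same ERCC total. Their median log2 fold change was -0.26, which turned to 0.21 with the same total and was -1.58 with the same ERCC total. All 12462 tested protein-coding genes had a median of -0.39.

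Comparing a -DT gene with its partner in the same library removes the scaling between libraries. For each library the log2 ratio of the -DT gene to its partner was taken, and the difference of this ratio between chromatin and nucleoplasm was tested by limma over all 2065 pairs of the table, made of neighbours that start head to head and the -DT pairs. A pair was called when the adjusted p was under 0.05 and the difference exceeded 1 on the log2 scale. In 193 of the 313 pairs (61.7%) the -DT gene was shifted to chromatin against its partner, and in 23 (7.35%) to nucleoplasm, so that 216 were called in either direction where 58.6% of all pairs were. The 619 other head-to-head pairs of an lncRNA and a coding gene had 61.7% shifted to chromatin and 8.4% to nucleoplasm, so the -DT pairs lay at this background. Of the 353 tested -DT genes, 49 reached the count minimum in chromatin alone, and those with a tested partner are among the 313 pairs. That minimum fixed the direction of such a -DT gene, and how many pairs hold one was not counted. The pair counts are therefore a description. The median difference was 1.46 in the -DT pairs (quartiles 0.43 and 2.39, range -4.31 to 5.46) and 1.36 in those other pairs, and it was above 0 in 260 -DT pairs.

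The calls of -DT pairs changed little with the scaling and the pseudocount, with 184 to 199 pairs shifted to chromatin and 23 or 24 to nucleoplasm. Read by the directions of the single genes under the deposited scaling, 125 pairs had the -DT gene higher in chromatin and the partner higher in nucleoplasm. Both were higher in chromatin in 73 pairs and both higher in nucleoplasm in 19. The reverse arrangement, with the -DT gene higher in nucleoplasm and the partner in chromatin, was found in 14 pairs. Unlike the pair calls, directions of single genes move with the scaling. These counts of directions were not taken under another scaling or for the other head-to-head pairs. Across the 313 pairs the log2 fold changes of gene and partner were hardly related (Pearson r = 0.03, Spearman rho = 0.03, across genes that share libraries and, in part, sequence), given as a description.

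**Figure D2:**
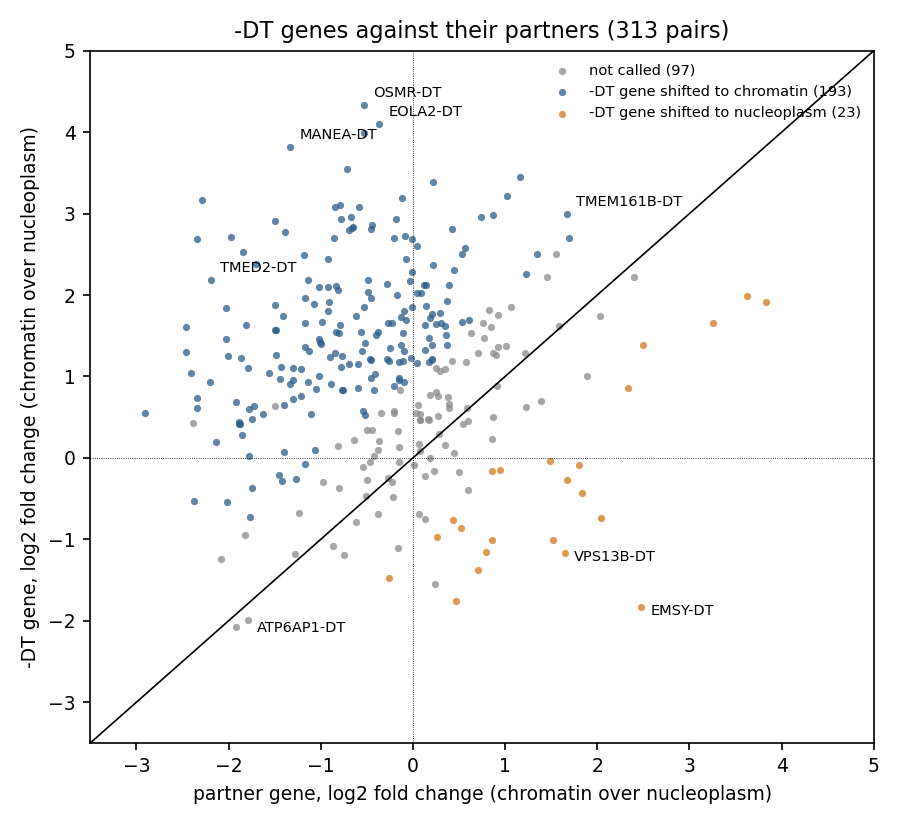
Log2 fold change of each -DT gene (y axis) against that of its partner (x axis), chromatin over nucleoplasm, for 313 pairs; the line marks equal values, blue points are the 193 pairs shifted to chromatin, orange points the 23 shifted to nucleoplasm and grey points the 97 not called. Most points lie above the line, EMSY-DT lies farthest below it at a difference of -4.31, and ATP6AP1-DT lies near it at -0.20; the axes would move together under another scaling while distances from the line would not.

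The pairs that were farthest apart are given with all values, for genes with a mean of 50 normalized counts or more on both sides. MANEA-DT had 438, 390.3 and 384 normalized counts in chromatin and 35.98, 24.97 and 23.7 in nucleoplasm, while MANEA had 1260.2, 1183 and 1441 and 3453, 3208 and 3109, higher in nucleoplasm in every library. The pair difference was 5.15 ± 0.16 (adjusted p = 9.93e-10, limma over pairs). These starts are 35 bases apart. EOLA2-DT, with the values above, differed from EOLA2 by 4.46 ± 0.10, and GOT1-DT from GOT1 by 4.09 ± 0.11.

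FAM174A-DT had 90.8, 153 and 111 normalized counts in chromatin and 12.3, 14.6 and 16.9 in nucleoplasm, and FAM174A 133, 124 and 142 and 387, 387 and 357. The gene and its partner ran in opposite directions, and the pair difference was 4.41 ± 0.25 (adjusted p = 4.63e-08). TMED2-DT, beside the gene for a cargo receptor between endoplasmic reticulum and Golgi, had 656, 604 and 656 and 153, 142 and 127, while TMED2 had 3162, 2709 and 3495 and 14183, 14039.9 and 14330.3. Here the difference of 4.37 ± 0.11 came with a partner that was itself called in nucleoplasm (-2.19 ± 0.08). KLHL7-DT, beside the gene for an adaptor of a ubiquitin ligase, had 754, 891 and 775 and 126, 119.7 and 106, and KLHL7 991, 916 and 1032 and 2575, 2497 and 2618, a difference of 4.16 ± 0.13. KLHL7-DT was matched at a Jaccard index of 0.605.

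Below that count limit were the pair with the largest difference of all and the pair of the glycolytic marker, both named after their values were seen. SOD1-DT, beside the gene for superoxide dismutase, had 82.7, 94.9 and 80.1 normalized counts in chromatin and 11.4, 9.47 and 5.91 in nucleoplasm (3.17 ± 0.23), and its difference from SOD1 was 5.46 ± 0.27. GAPDH-DT had 10.5, 10.8 and 10.98 and 0, 0 and 5.07 normalized counts, which are 9, 9 and 10 reads against 0, 0 and 6. It also reached the count minimum in chromatin alone, and no difference from GAPDH is given for so few reads. The start of GAPDH-DT lies 1014 bases from that of GAPDH.

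In the opposite direction EMSY stood apart. EMSY, which encodes a chromatin regulator that binds BRCA2, had 7503, 8025 and 7270.4 normalized counts in chromatin and 1470.0, 1316 and 1315 in nucleoplasm and was called in chromatin (2.47 ± 0.06), while EMSY-DT ran from 148, 144 and 138 to 486, 513 and 541. The difference was -4.31 ± 0.11 (adjusted p = 4.54e-10), in a pair whose spans do not overlap. VPS13B-DT, beside the gene for a large Golgi lipid-transfer protein, had 96.7, 96.1 and 114 and 220.3, 216 and 255 normalized counts, and VPS13B 7399, 8001 and 7661 and 2482, 2536 and 2328, a difference of -2.81 ± 0.13 with spans that overlap by 667 bases.

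CCDC15-DT had 44.3, 37.2 and 43.9 normalized counts in chromatin and 79.9, 72.3 and 59.1 in nucleoplasm, and CCDC15, a coiled-coil gene, 1834, 2290.2 and 1951 and 478, 539.8 and 458. The low counts of the -DT gene lay close together in both fractions, and the difference of -2.77 ± 0.19 came mostly from the partner. ZC3H12A-DT, beside the gene for an RNA endonuclease that limits inflammation, had 54.7, 50.4 and 29.6 and 78.98, 86.1 and 102, and ZC3H12A 1380.1, 1199 and 1418 and 431, 468 and 494 (-2.53 ± 0.24). PCMTD1-DT had 281, 265 and 281 and 337, 386 and 401, and PCMTD1 2657, 2945 and 2702 and 845, 765 and 721 (-2.27 ± 0.13); the log2 fold change of PCMTD1-DT itself, -0.44 ± 0.08, turned to 0.025 with the same total.

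CABP1-DT differed from CABP1 by -2.22 ± 0.17 and BAIAP2-DT from BAIAP2 by -1.22 ± 0.09, both past the test. CABP1 had 118, 110.5 and 96.6 normalized counts in chromatin and 85.1, 82.6 and 66.7 in nucleoplasm, a small difference towards chromatin (0.47 ± 0.13) that turned to -0.84 with the same ERCC total. For ATP6AP1-DT and ZDHHC12-DT the difference from the partner was -0.20 ± 0.16 (adjusted p = 0.27) and -0.16 ± 0.20 (adjusted p = 0.479) and did not pass. ATP6AP1 had 2572, 2105 and 2489 and 8255, 8224 and 8185 normalized counts, at -1.79 ± 0.07.

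**Figure D3:**
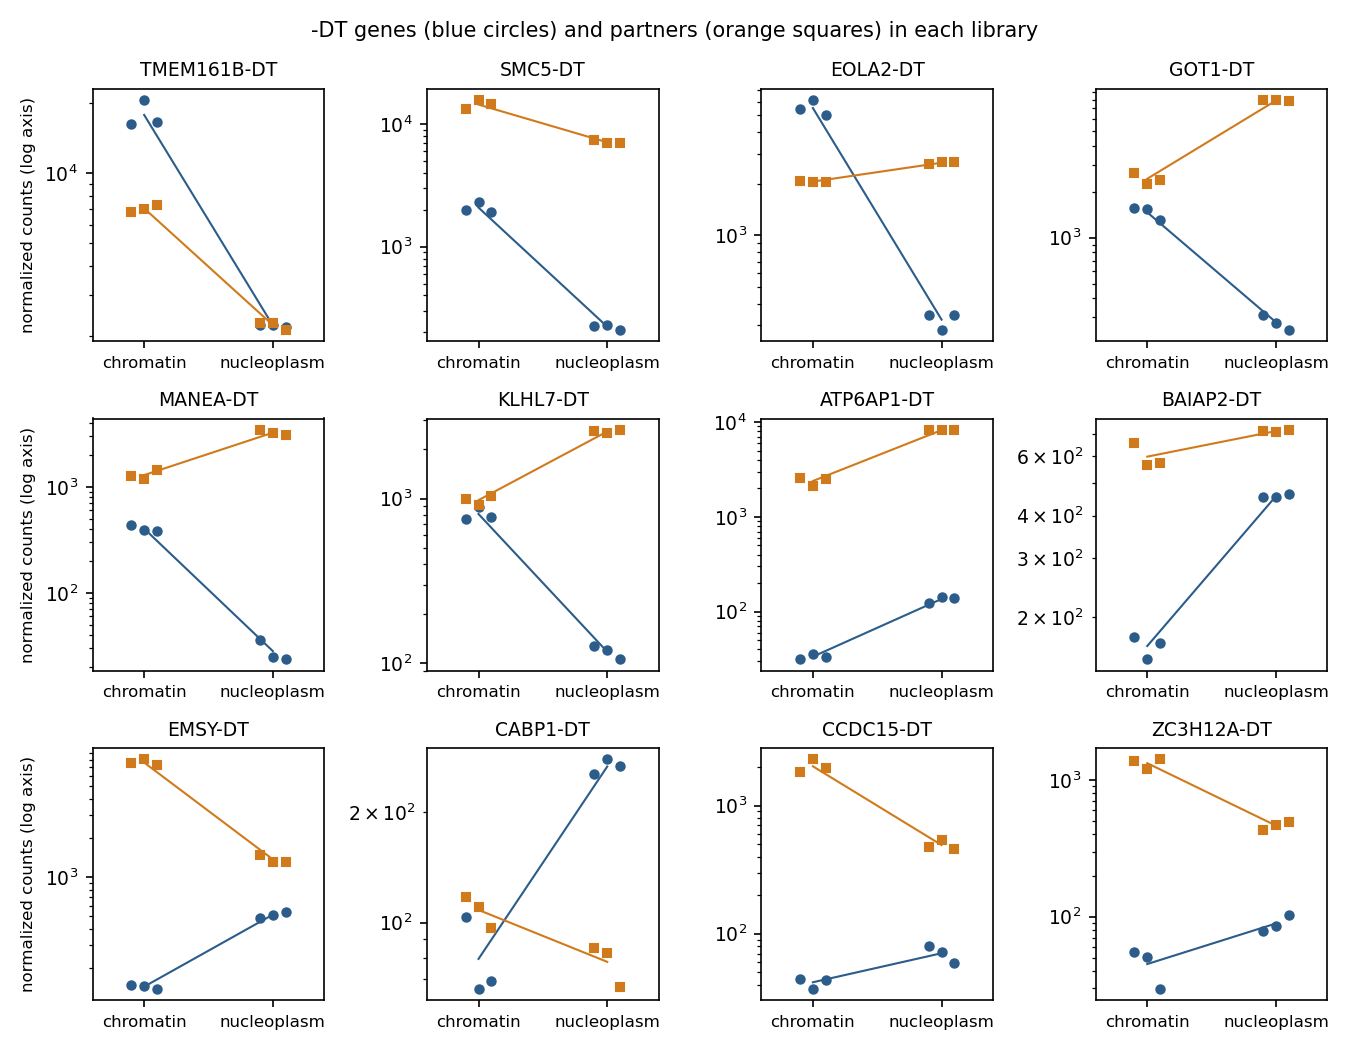
Normalized counts (log axis, one scale per panel) of 12 -DT genes (blue circles) and their partners (orange squares) in each of the 3 chromatin and 3 nucleoplasm libraries, with lines joining the means of the fractions. In the panels from EOLA2-DT to KLHL7-DT the lines run in opposite directions under the deposited scaling (EOLA2 turns to 0.10 with the same total), in ATP6AP1-DT they run nearly parallel, and in EMSY-DT, CCDC15-DT and ZC3H12A-DT the partner falls from chromatin to nucleoplasm while the -DT gene is higher in nucleoplasm; CCDC15-DT no longer passes the test with the same total per library.

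Partners were also grouped by the letters their symbols begin with, which takes in some gene families and not all genes of a function. The transcription factor prefixes (such as ZNF, FOX and PRDM) miss factors such as CTCF and RELA and include PAXIP1, which is not one, the mitochondrial prefixes (such as MRP, NDUF and COX) miss HCCS and POLG, and the ubiquitin and proteasome prefixes (such as UB, RNF and PSM) miss STUB1. For comparison, all 313 -DT pairs had 61.7% shifted to chromatin and 7.35% to nucleoplasm. Of 17 pairs with a transcription factor prefix, 7 had the -DT gene shifted to chromatin (41.2%) and 2, beside PAXIP1 and ZNF516, to nucleoplasm (11.8%). FOXF2-DT, beside a forkhead regulator, differed from its partner by 2.97 ± 0.36, while ZNF516-DT stood at -2.07 ± 0.15. Outside the prefixes, CTCF-DT, beside the gene for an insulator protein, stood at 2.66 ± 0.28. Of 12 pairs with a ubiquitin or proteasome prefix, 7 were shifted to chromatin (58.3%) and 0 to nucleoplasm at this rule. Past the adjusted p alone were 9 in the chromatin direction and 0 in the other. RNF139-DT, beside a membrane ubiquitin ligase, stood at 3.90 ± 0.13 and PSMD7-DT, beside a subunit of the proteasome lid, at 3.49 ± 0.69. Of 8 pairs with a mitochondrial prefix, 5 were shifted to chromatin (62.5%) and 1 to nucleoplasm (12.5%). MRPL20-DT, beside a gene of the mitochondrial ribosome, stood at 3.87 ± 0.10, NDUFA6-DT, beside a subunit of complex I, at 3.46 ± 0.26, and SLC25A28-DT, beside a mitochondrial iron carrier, at -1.11 ± 0.24. These groups are small, the counts are of prefixes and not of functions, and no difference between them was tested.

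By the gap between the starts, the -DT gene was shifted to chromatin in 49 of 82 pairs with a gap of 0 to 100 bases (59.8%), in 63 of 102 with a gap over 100 and up to 300 bases (61.8%), in 20 of 31 with a gap over 300 and up to 1000 bases (64.5%) and in 52 of 88 pairs whose starts cross (59.1%). Of the 10 pairs with a positive gap over 1000 bases, 9 were shifted to chromatin. The pairs whose starts cross include others with starts more than 1000 bases apart. All these counts, and those by length and exon number below, include -DT genes that reached the count minimum in chromatin alone. By length, of 66 spans of 50 kb or more, 23 were called in chromatin (34.8%, median log2 fold change 1.49), and of 76 spans under 2 kb, 8 were called (10.5%, median 1.06), with 17.8% and 21.5% in the classes between. Across the 353 genes the log2 fold change and the log2 span had a Pearson r of 0.23 and a Spearman rho of 0.20, as a description over genes that share libraries. Of 275 genes with at least 2 annotated exons, 62 were called in chromatin (22.5%), and of 78 with 1 exon in every transcript, 10 (12.8%). Beside these shares stand 21.2% of all tested genes and 39.4% of tested lncRNAs without -DT. Other lncRNAs were not split by span or exon number, so no such trait is read as particular to -DT genes. The log2 fold change set against the mean count gave values near 0 by the same measures (r = -0.01, rho = -0.05).

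Other lncRNAs were set beside the -DT genes. Of 3079 tested lncRNA genes without -DT in the name, 39.4% were called in chromatin, with a median log2 fold change of 1.58. In the classes nearest in position, 22.6% of the 619 other head-to-head lncRNAs were called (median 1.11) and 25.9% of 571 lncRNAs named -AS, which run antisense to a gene (median 1.10). Of 285 long intergenic lncRNAs named LINC, 34.4% were called (median 1.36). At a mean of 200 normalized counts or more 23.8% of 63 -DT genes and 30.0% of 631 other lncRNAs were called, and at a mean under 20 these shares were 20.7% of 92 and 49.4% of 976. At a low mean a gene can reach the count minimum in chromatin alone, which fixes its direction. How many of the other lncRNAs did so was not counted, so the shares under 20 depend in part on that minimum. All these shares are descriptions, and the difference between classes was not tested.

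**Figure D4:**
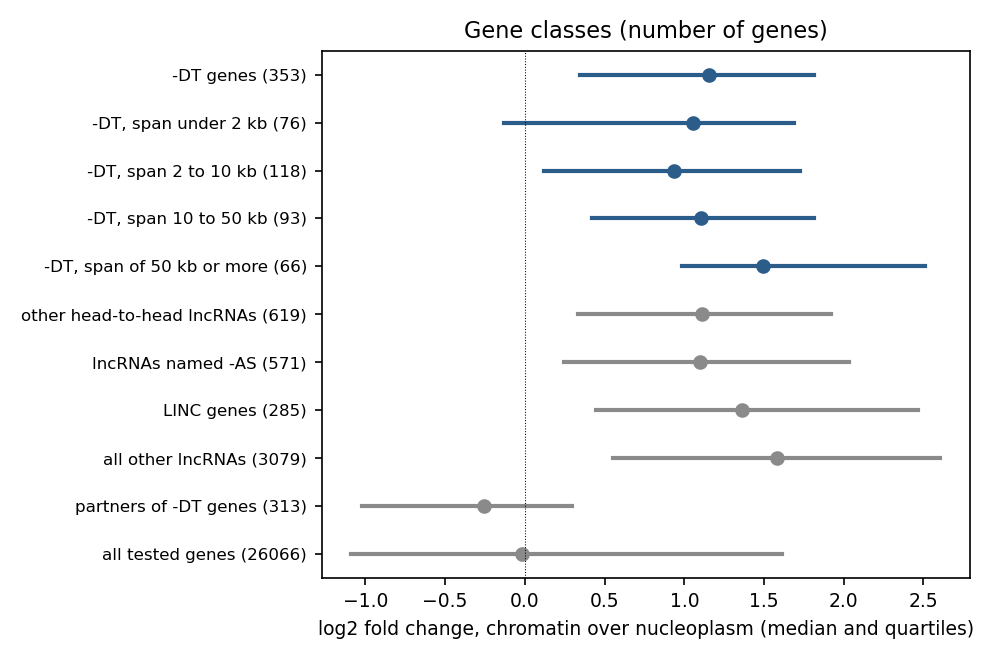
Median (points) and quartiles (lines) of the log2 fold change of chromatin over nucleoplasm (x axis) in classes of genes, with the number of genes in parentheses; -DT genes and their span classes are in blue. All 353 -DT genes have a median of 1.15 and those spanning 50 kb or more 1.49, beside 1.11 for other head-to-head lncRNAs and 1.58 for all other lncRNAs; all medians shift together under another scaling, and with the same ERCC total that of the -DT genes is -0.13.

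Per kilobase of exon, -DT genes were far below their partners. In chromatin the median level was 30.4 normalized counts per kilobase for -DT genes and 359 for partners, and the partner was higher in 295 of 313 pairs, by a median of 10.7-fold. In nucleoplasm the medians were 13.1 and 394, and the partner was higher in 306 pairs, by a median of 30.4-fold. These levels are per length of the annotated exon union, so intronic reads of unspliced RNA raise them in a way that depends on the gene. Of the named pairs, the -DT gene reached 1.46 times the chromatin level of its partner per kilobase in MANEA-DT, 1.31 times in COX10-DT and 0.0814 times in RIPK2-DT.

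The long reads gave a separate view of the chromatin RNA, in TPM (a share of all transcripts, which holds no depth), summed per gene. The Nanopore cDNA kit keeps no strand of origin, and the paper reports long reads placed on the wrong strand. The TPM of a -DT gene can therefore include reads from the opposite strand, those of its partner among them. Of the 354 -DT genes, 248 were above 0 TPM in each library and 198 in both (55.9%), and 119 had at least 1 TPM in both. The tested lncRNAs as a whole were above 0 in both libraries in 54.7%, and 305 of the 313 partners were. Of the 194 -DT genes whose mean in short-read chromatin was 50 or more, 145 were above 0 in both libraries, and of the other 160, 53 were. TMEM161B-DT had 64.99 and 53.8 TPM, GARS1-DT 43.9 and 23.95, UBL7-DT 25.6 and 16.1 and SMC5-DT 10.6 and 5.598. EMSY-DT, low in short-read chromatin, had 5.41 and 8.91 TPM beside 13.6 and 17.3 for EMSY. TMED2-DT was listed at 0 in both libraries despite 656, 604 and 656 normalized counts, and OSMR-DT had 0 and 0.598. With 2 libraries of 1 fraction no test was made.

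In the first 1000 bases after the annotated start, on the transcribed strand, the poly(A) signal AATAAA was present in 99 of the 313 -DT genes of the pairs (31.6%) and in 47 of their partners (15.0%), beside 27.4% of all 19374 tested annotated genes. The splice-site letters GGTAAG were present in 17.3% of these -DT genes, 20.8% of partners and 21.0% of all. Other head-to-head lncRNAs held AATAAA in 28.3% and GGTAAG in 17.3%. Tested lncRNAs without -DT held them in 37.4% and 20.8%, so neither share was particular to the -DT genes. The median GC content of this window was 53.4% in the -DT genes and 61.6% in the partners, a difference in base composition that the AATAAA count shares. Among the 72 -DT genes called in chromatin 26.4% held AATAAA and 20.8% GGTAAG, and among 280 called in neither fraction 35.4% and 15.7%. In OSMR-DT the first GGTAAG begins at base 162 and in SMC5-DT at base 952, both without AATAAA in the window, while HCCS-DT has its first AATAAA at base 416 and KLHL7-DT at base 294.

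The genes that terminate and degrade such transcripts were measured in the same libraries. Of 58 listed, 50 were tested, and 16 were higher in chromatin, 29 higher in nucleoplasm and 5 passed in neither direction at an adjusted p under 0.05 (limma, deposited scaling), with 2 past the 4-fold rule. Of all tested protein-coding genes 30.1% were higher in chromatin and 57.6% in nucleoplasm, so the listed genes lay near this background and nothing is read from their counts. Of 10 exosome genes 3 were higher in chromatin and 4 in nucleoplasm, of 9 adaptors 4 and 4, of 14 Integrator genes 5 and 9, of 14 cleavage and polyadenylation genes 4 and 9, and of 3 U1 snRNP genes 0 and 3. PCF11, a termination factor, had 7725, 7398 and 7351 normalized counts in chromatin and 2679, 2776 and 2637 in nucleoplasm, and EXOSC5, a core exosome subunit, was called in nucleoplasm at -2.51 ± 0.07. These values concern the messenger RNAs of those genes and not the proteins.

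Genes at the limits of the selection show what it left out. KPNB1-DT and R3HDM2-DT entered with 10.1 normalized counts in the lowest of their best 3 libraries and CHUK-DT with 10.5, and KCNC4-DT, CSE1L-DT and COP1-DT stayed out with 9.88. By the match, DCTN6-DT entered at a Jaccard index of 0.50 and ACAD9-DT at 0.512, and TTC32-DT stayed out at 0.4995 and RAB30-DT at 0.398. Of the 564 matched -DT genes, 74 were at 0 in all 6 short-read libraries, and 25 of the 589 were not matched, 11 of them because the best overlap was under the Jaccard limit. The 40 tested -DT genes without a tested partner had 7 calls in chromatin and a median log2 fold change of 0.50.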

How the data were processed

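RNA of HAP1 nuclei was measured in 8 libraries, 3 short-read chromatin, 3 short-read nucleoplasm and 2 long-read chromatin, grouped by title. The authors aligned short reads with HISAT2 2.1.0 to hg38 with ERCC sequences, assembled and merged transcripts with StringTie, and deposited a normalized signal, the gene counts scaled by size factors of DESeq2. Long reads were aligned with minimap2, assembled with StringTie and deposited by the authors as TPM per transcript. Every short-read value was a whole multiple of the value of 1 read (100% of values, tolerance 0.01), which gave 38895027 to 43804918 reads in chromatin and 75737601 to 79523938 in nucleoplasm. StringTie derives counts from coverage, which makes recovered reads estimates. Floors cover counting error only. Columns of values not used numbered 0.

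Testing covered 26066 genes that reached 10 normalized counts in 3 or more libraries and spanned over 200 bases (ERCC left out). log2(normalized count + 1) was fitted by limma 3.58.1 in R 4.3.3 with trended prior variance, no covariates, and Benjamini-Hochberg adjustment over all tested genes, and for pairs the same test on the log2 ratio of the genes with adjustment over all 2065 pairs. The pseudocount understates the change of low genes. Thresholds were an adjusted p-value of 0.05 with a log2 fold change beyond 2 in either direction, or 1 for pairs. An exact permutation test of 3 against 3 libraries could not go below p = 0.1 and was not used. DESeq2 1.42.0 and edgeR 4.0.16 fits to the recovered reads, scalings, pseudocounts, filters, matches, the replicate number as a block and leaving out libraries were alternatives. The fits were tested on simulated data.

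Gene models were GENCODE release 44 on hg38, and all gene coordinates of the table lay inside the chromosomes of that build. The authors used an earlier release. Named genes, among -DT genes with a tested partner, were the 10 most abundant, the 5 past the test with the largest fold change in each direction, the 5 largest and 5 smallest pair differences among pairs past the threshold with both genes averaging 50 normalized counts or more, their partners, genes at a bound, and genes at the limits of the selection. Examples from partner groups, RRS1-DT, ACAD9-DT, ZNF426-DT, DCTN6-DT, PCF11, EXOSC5, SOD1-DT and GAPDH-DT were chosen after their values were seen. The -DT genes and all lists were chosen with earlier results of these data known. Some cell type markers are not reported here.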

Additional observations from a re-analysis of the deposited data

How the results depend on the processing

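The pair comparison was the steadiest result, and the calls of single genes depended on the scaling. Under the other settings calls of single genes were counted for -DT genes and partners only, with no share of all genes beside them. With the same total per library, the -DT calls were 124 in chromatin and 0 in nucleoplasm (72 and 1 as deposited), the -DT median log2 fold change was 1.59, partners had 18 and 1 calls, and their median reversed from -0.26 to 0.21. With the same ERCC total, the -DT calls were 11 and 29 and the median reversed from 1.15 to -0.13, with 2 and 109 calls and a median of -1.58 in partners. Among named genes, PCMTD1-DT (0.025), GARS1 (0.20), EOLA2 (0.10) and BAIAP2 (0.21) reversed with the same total, and GARS1-DT (-0.13), UBL7-DT (-0.36), NIPBL (-1.12), SMC5 (-0.31), RIPK2 (-0.79) and CABP1 (-0.84) with the same ERCC total. These reversals follow from the scaling itself, which moves all genes of a library alike.

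A pseudocount of 5 gave 44 and 0 -DT calls, a median of 0.96 and a median pair difference of 1.33 (1.46 as reported), and a pseudocount of 0.5 gave 2 calls in nucleoplasm. Among genes averaging 50 normalized counts or more, 36 of 169 -DT genes were called in chromatin (median 0.94) and 92 of 150 pairs were shifted to chromatin. Without a filter on low values, 489 -DT genes had a median of 1.11; the pair fit without that filter was not run, since pairs were built from tested genes. Medians of -DT genes and partners were 1.18 and -0.23 with TMM, 1.20 and -0.23 with edgeR, and 1.28 and -0.16 with DESeq2, which called 0 -DT genes in nucleoplasm. With a 2-fold minimum, calls rose to 192 and 18 -DT genes and 30 and 80 partners. MSTRG matches alone gave a -DT median of 1.12. At least 1 TPM in both long-read libraries was reached by 119 -DT genes, against 198 above 0.

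In 225 pairs without overlap of the annotated spans the medians were 1.19 for -DT genes, -0.28 for partners and 1.55 for the difference, with 15 pairs shifted to nucleoplasm. Chosen after seeing the data, 230 pairs without overlap in the table gave 1.19 and -0.37, and 265 pairs in which the -DT gene covers no other annotated gene of its strand gave 1.12, -0.22 and 1.34. Starts within 1000 bases, also chosen after seeing the data, moved no count by over 1.5 times. Leaving out each library in turn gave 66 to 73 -DT calls in chromatin, 1 to 2 in nucleoplasm and medians of 1.11 to 1.16, partner calls of 7 to 9 and 15 to 19 with medians of -0.26 to -0.23, and 187 to 193 and 21 to 24 pair calls with median differences of 1.42 to 1.45.

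Same-numbered chromatin and nucleoplasm libraries shared little deviation (correlations of 0.09, 0.05 and 0.06), so the numbers were not taken as pairing, although each chromatin library correlated best with its own number. With the replicate number as a block, 194 pairs were shifted to chromatin (193 without it) and no other count changed.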
